A study of Homo sapiens with 6 samples.

Results

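The YAP-TEAD targets and the Hippo pathway genes analysed here are 41 human genes in 3 groups: 20 targets of the YAP-TEAD transcription complex, 14 genes of the Hippo kinase pathway and its membrane-proximal regulators, and 7 genes for the effectors YAP1 and WWTR1, the DNA-binding factors TEAD1 to TEAD4 and the TEAD cofactor VGLL4. The genes were chosen with earlier results of the same contrast (siLSD1 against siCTR) in view, so their values and calls are given as a description, and no p-value is given for a member or for the set. Of the 41 genes, 40 were among the 15585 genes of the count table, and all 40 of these passed the filter on low counts that left 11844 genes. AMOT was not analysed here.

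RNA-seq compared 3 samples of the osteosarcoma line U2OS given a control siRNA (group siCTR) with 3 given an siRNA to LSD1 (group siLSD1), each for 48 h. LSD1 is a histone lysine demethylase encoded by KDM1A, and which LSD1 siRNA was used for these libraries is not given in the sources used here. Depth was 12855558, 13026699 and 13444230 counted reads in siCTR replicates 1, 2 and 3, and 13292468, 12513511 and 13561344 in siLSD1 replicates 1, 2 and 3. Nothing in the labels says that replicates came from separate cultures, so the p-values measure the spread between these samples, which may be technical.

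In the Hippo pathway, the kinases STK3 and STK4 with the scaffold SAV1 activate the kinases LATS1 and LATS2 with their MOB1 cofactors, and LATS kinases phosphorylate YAP1 and WWTR1 (TAZ) and keep them out of the nucleus. Without this phosphorylation, YAP1 and WWTR1 bind TEAD factors on DNA and raise the transcription of genes for secreted matrix-associated proteins, cytoskeletal regulators and some of the pathway's own inhibitors. Much of this control acts on protein phosphorylation and location, which RNA levels do not measure.

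The targeted gene was examined first. KDM1A (chr1:23019443-23083689, + strand, GRCh38) was at 473, 506 and 489 CPM (counts scaled by TMM and library depth) in siCTR replicates 1, 2 and 3 and at 82.7, 96.1 and 92.4 CPM in siLSD1 replicates 1, 2 and 3. The siLSD1 libraries were all far below the siCTR libraries, at 18.5% of the control mean. KDM1A fell at a log2 fold change of −2.44 (standard error 0.11), with an adjusted p of 2.27e-07 (edgeR quasi-likelihood, Benjamini-Hochberg) and 1.24e-90 to 6.77e-06 over the alternatives. A gene was called higher or lower where this adjusted p, taken over all genes tested, was under 0.05.

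Cell type markers were also examined. Of 12 mesenchymal and osteoblast markers, 9 were in the table and 5 were tested, with VIM the most abundant per length and 0 called in either direction by edgeR. The summed level of this list was 1547 to 1650 CPM in the siCTR libraries and 1614 to 1654 CPM in the siLSD1 libraries. RUNX2, an osteoblast transcription factor, had 0 to 4 reads per library, and ALPL was at 354, 324 and 338 CPM in siCTR and 403, 369 and 322 CPM in siLSD1 replicates 1, 2 and 3. All 5 epithelial markers were in the table and 4 were tested, with KRT18 the most abundant per length, EPCAM at 28 to 41 reads per library and 0 called in either direction by edgeR. Their summed level was 2958, 3581 and 3046 CPM in siCTR and 3036, 2871 and 2436 CPM in siLSD1 replicates 1, 2 and 3. Log2 fold changes were −0.32 for KRT18, −0.14 for KRT8, −0.06 for EPCAM and 0.77 for CDH1, and of these only CDH1 was called with the replicate block, as higher.

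Of 4 endothelial markers, 3 were in the table and 2 were tested, and VWF was called higher, at 7.93, 4.91 and 6.62 CPM in siCTR and 11.3, 12.9 and 11.5 CPM in siLSD1 replicates 1, 2 and 3. With the replicate block, CDH5 was called higher as well. The summed level of the endothelial list was 8.63, 5.22 and 7.66 CPM in siCTR and 13.5, 14.2 and 13.7 CPM in siLSD1 replicates 1, 2 and 3, most of it from VWF. The defining marker PECAM1 had at most 3 reads in any library. Of 4 haematopoietic markers, 3 were in the table and 1 was tested, PTPRC had 1 read in all 6 libraries together, and the summed level was at most 3.73 CPM. The part of these marker differences in the results for the members was not tested.

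Among the 20 targets, ANKRD1, CTGF, CYR61 and F3 were each higher in all 3 siLSD1 libraries than in any siCTR library. These 4 genes were called higher and 0 targets were called lower by edgeR, beside 127 (1.07%) and 44 (0.371%) of all 11844 genes tested. Since the members were chosen with this contrast known, nothing is read from these counts. In bulk RNA, more cells with a transcript and more transcript per cell cannot be told apart, and the same holds for fewer cells and less RNA per cell.

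ANKRD1, an ankyrin repeat protein of muscle that is also found in the nucleus, was at 6.85, 6.23 and 5.35 CPM in siCTR replicates 1, 2 and 3 and at 15.1, 17.7 and 21.9 CPM in siLSD1 replicates 1, 2 and 3. The counts behind these levels were 89, 80 and 72 reads in siCTR and 203, 221 and 296 reads in siLSD1. The groups were far apart, with means of 6.15 ± 0.753 for siCTR against 18.3 ± 3.44 CPM for siLSD1 (SD, n = 3 each), or 297% of the control. Its log2 fold change of 1.57 (standard error 0.18) was the largest of the 40 members, from a low control level.

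CTGF (now CCN2), a secreted matricellular protein, was at 88.0, 99.6 and 89.3 CPM in siCTR and at 176, 176 and 168 CPM in siLSD1 replicates 1, 2 and 3. Replicates lay close together in each group, and the siLSD1 mean was 188% of the siCTR mean, with a log2 fold change of 0.91 (standard error 0.11). CYR61 (now CCN1), the related CCN family protein, was at 176, 187 and 181 CPM in siCTR and at 344, 323 and 342 CPM in siLSD1 replicates 1, 2 and 3. The CYR61 groups did not overlap, and the log2 fold change was 0.89 (standard error 0.10), close to that of CTGF. F3, the tissue factor that starts blood coagulation at the cell surface, was at 30.6, 35.4 and 27.1 CPM in siCTR and at 48.8, 52.1 and 57.3 CPM in siLSD1 replicates 1, 2 and 3. All siLSD1 libraries were above all siCTR libraries for F3, with a log2 fold change of 0.76 (standard error 0.13).

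The calls of ANKRD1, CTGF and CYR61 held in each of the 6 fits that left out 1 library. F3 was called in 4 of these 6 fits and not without siCTR replicate 3 or without siLSD1 replicate 2, with log2 fold changes of 0.67 to 0.87 over the 6 fits. AXL was called in 1 of them, without siLSD1 replicate 3, with log2 fold changes of 0.41 to 0.57.

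Per length, these 4 genes covered a wide range of control levels in the authors' FPKM values. CYR61 was at 79.1 ± 1.47 FPKM (SD, n = 3) in siCTR and 147 ± 5.60 in siLSD1. CTGF followed at 39.4 ± 2.24 in siCTR and 74.1 ± 2.28 in siLSD1, then F3 at 13.5 ± 1.70 and 23.0 ± 1.72 FPKM. ANKRD1 was the lowest of the 4 in both groups, at 3.10 ± 0.396 FPKM in siCTR and 9.22 ± 1.68 FPKM in siLSD1, so the gene with the largest fold change added the least RNA per length.

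**Figure D1:**
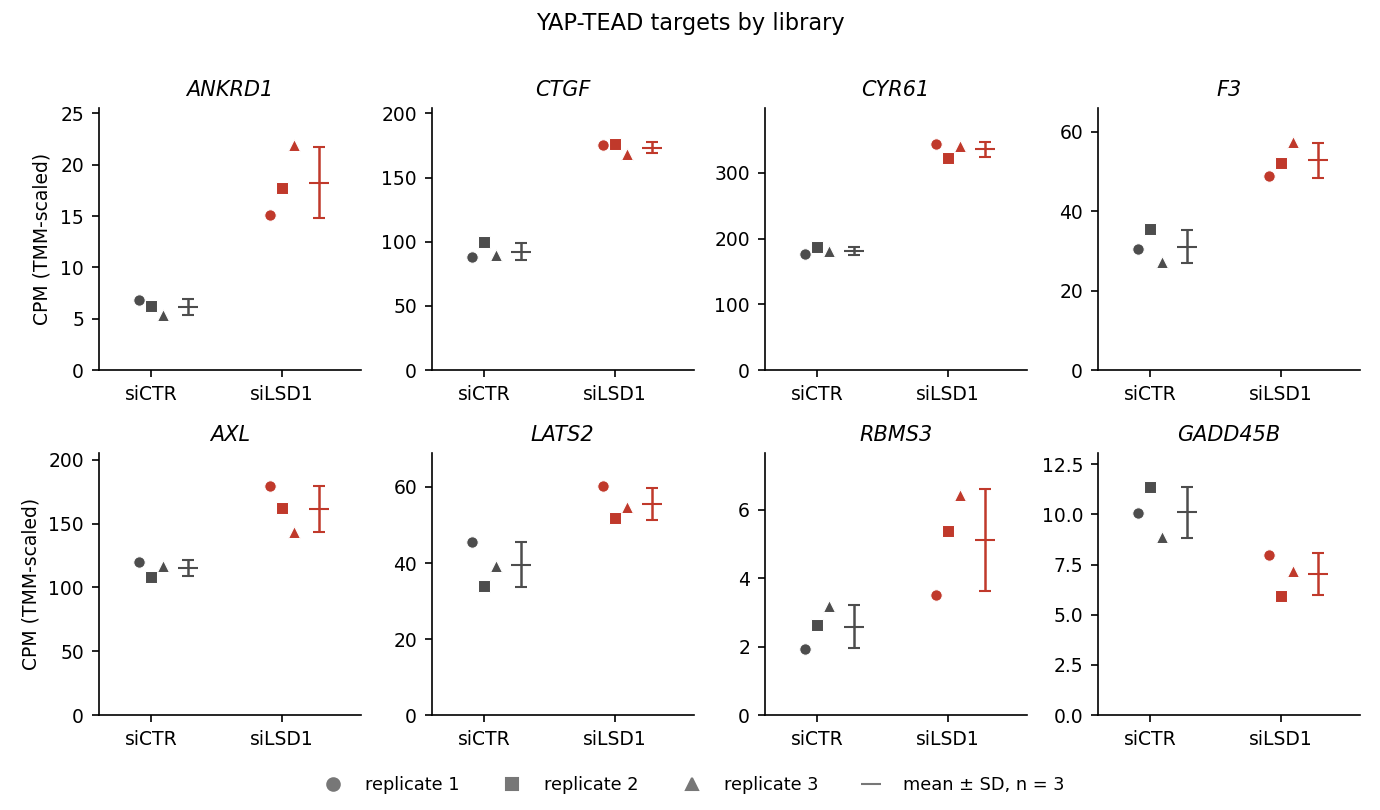
Level of 8 YAP-TEAD targets in CPM (linear axis from 0) in 3 siCTR and 3 siLSD1 libraries, with marker shapes for the replicate number and bars for the mean ± SD of 3. ANKRD1, CTGF, CYR61 and F3 were called higher, AXL, LATS2 and RBMS3 did not overlap and were called with the replicate block and other alternatives only, and GADD45B was lower in all 3 siLSD1 libraries.

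Promoter windows of called targets were searched for the motif that TEAD factors are known to bind. The windows hold 250 bases before and 50 bases from the start site on (GRCh38.p14, RefSeq, transcribed strand, 5′ to 3′), and capitals mark matches of the TEAD motif GGAATG on either strand and of the AP-1 motif TGANTCA, which is its own reverse complement. CYR61 had no entry in the promoter table. The windows are chr6:131951323-131951622 (minus strand) for CTGF, chr10:90921038-90921337 (minus strand) for ANKRD1 and chr1:94541710-94542009 (minus strand) for F3.
CTGF: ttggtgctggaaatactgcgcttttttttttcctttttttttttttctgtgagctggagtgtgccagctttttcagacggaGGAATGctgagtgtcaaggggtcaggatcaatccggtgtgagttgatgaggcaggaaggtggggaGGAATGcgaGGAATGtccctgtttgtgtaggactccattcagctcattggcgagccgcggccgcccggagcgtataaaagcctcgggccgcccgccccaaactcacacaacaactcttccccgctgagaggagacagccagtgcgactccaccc
ANKRD1: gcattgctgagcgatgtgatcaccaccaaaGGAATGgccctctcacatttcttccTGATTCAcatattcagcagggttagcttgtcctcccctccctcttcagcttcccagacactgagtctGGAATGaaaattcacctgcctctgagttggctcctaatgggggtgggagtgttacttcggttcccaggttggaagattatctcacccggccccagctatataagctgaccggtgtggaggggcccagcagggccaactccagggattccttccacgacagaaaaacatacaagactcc
F3: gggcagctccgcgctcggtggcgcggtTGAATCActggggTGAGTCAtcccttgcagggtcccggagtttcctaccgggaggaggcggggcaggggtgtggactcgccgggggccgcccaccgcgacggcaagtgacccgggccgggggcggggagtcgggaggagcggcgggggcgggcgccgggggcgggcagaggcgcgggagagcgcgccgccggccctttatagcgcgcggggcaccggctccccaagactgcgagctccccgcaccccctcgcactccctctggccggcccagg
The CTGF window held 3 TEAD motifs, with first bases at −169, −104 and −95 from the start site, and no AP-1 motif. The ANKRD1 window held 2, at −220 and −128, with an AP-1 motif between them at −195. The F3 window held no TEAD motif and 2 AP-1 motifs, at −223 and −210. No TEAD match overlapped an AP-1 match in these windows.

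Of the 15 targets with a promoter in the table, 9 (60.0%) had the TEAD motif in at least 1 window, namely CTGF, ANKRD1, AMOTL2, LATS2, AXL, NUAK2, PTPN14, TGFB2 and FOXF2. The motif was in 2 of 12 Hippo pathway genes (16.7%), WTIP and WWC2, and in 1 of 5 effector genes, YAP1. Counted the same way by gene, 1437 of the 9582 tested genes with a promoter had it (15.0%), and 14.0% of all 35116 windows held it. The AP-1 motif was in 4 of the 32 members with a promoter, ANKRD1, F3, LATS1 and MOB1B, beside 6.95% of tested genes and 7.71% of all windows. A match shows only that these letters are in the window, genes with several start sites had more windows, and nothing is read from an absent match.

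Another 3 targets, AXL, LATS2 and RBMS3, did not overlap between groups and were not called by edgeR with the filter on low counts and no further terms. Without that filter, edgeR called AXL higher as well. AXL, a receptor tyrosine kinase, was at 120, 108 and 117 CPM in siCTR and at 179, 162 and 143 CPM in siLSD1 replicates 1, 2 and 3. LATS2, the kinase that acts on YAP1 and is itself a YAP-TEAD target, was at 45.6, 33.9 and 39.2 CPM in siCTR and at 60.1, 51.8 and 54.6 CPM in siLSD1. For both genes every siLSD1 library exceeded every siCTR library, with a log2 fold change of 0.49 (standard error 0.12 for AXL and 0.13 for LATS2). RBMS3, an RNA-binding protein, was at 1.93, 2.65 and 3.20 CPM in siCTR and at 3.50, 5.38 and 6.45 CPM in siLSD1 replicates 1, 2 and 3. The RBMS3 groups were apart by little, siCTR replicate 3 and siLSD1 replicate 1 lying side by side, and its log2 fold change of 0.98 had a standard error of 0.28.

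Samples with the same replicate number deviated together, only weakly for replicate 2. A fit with the replicate number as a block called AXL, LATS2 and RBMS3 higher as well. It thus called 7 targets higher and 0 lower, where it called 489 (4.13%) and 408 (3.44%) of all genes. The fit with terms for GC content and gene length called the same 7 targets higher and 0 lower, beside 527 (4.48%) and 342 (2.91%) of 11761 genes. With the block and these terms together, AMOTL2 was added, giving 8 higher and 0 lower beside 725 (6.16%) and 575 (4.89%). DESeq2 called AXL and LATS2 beside the 4 called by edgeR, for 6 higher and 0 lower against 210 (1.77%) and 113 (0.954%) of all genes, and limma-voom called 4 higher and 0 lower against 121 (1.02%) and 38 (0.321%). At an unadjusted p under 0.05, 8 targets were higher and 1 was lower in edgeR, against 886 (7.48%) and 776 (6.55%) of all genes.

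MYOF and AMOTL2 also stood higher in each siLSD1 library. MYOF, a ferlin of the plasma membrane at 83.1 ± 17.1 FPKM (SD, n = 3) in siCTR, was at 675, 465 and 664 CPM in siCTR and at 725, 707 and 778 CPM in siLSD1 replicates 1, 2 and 3. AMOTL2, an angiomotin family protein that binds YAP1, was at 222, 170 and 209 CPM in siCTR and at 253, 240 and 237 CPM in siLSD1. For both, siCTR replicate 2 was well below the other 2 siCTR libraries. Log2 fold changes were 0.29 (standard error 0.14) for MYOF and 0.28 (standard error 0.12) for AMOTL2, and became 0.14 and 0.18 without siCTR replicate 2.

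GADD45B, a stress-induced growth arrest gene, went the other way. It was at 10.1, 11.4 and 8.85 CPM in siCTR and at 7.97, 5.94 and 7.19 CPM in siLSD1 replicates 1, 2 and 3. The groups did not overlap, the siLSD1 libraries being the lower ones, and the log2 fold change was −0.52 (standard error 0.18), not called. In all, 9 targets did not overlap and were higher and 1 did not overlap and was lower, where 1350 (11.4%) and 1181 (9.97%) of all genes tested did so.

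The other 10 targets overlapped between groups and were not called, with log2 fold changes from −0.26 (FJX1) to 0.21 (DOCK5) and standard errors of 0.11 to 0.17. Of these, 7 were above 0 and 3 below. They include NT5E, the ectonucleotidase CD73, whose siCTR mean was 18.5 ± 1.74 CPM and siLSD1 mean 18.9 ± 4.48 CPM (SD, n = 3 each), and CRIM1, a transmembrane protein that binds BMP ligands, at 344 ± 23.2 and 342 ± 26.1 CPM. The ligand TGFB2, the YAP1-binding phosphatase PTPN14, the kinase NUAK2, the forkhead factor FOXF2, and the GTPase regulators ARHGEF17, DOCK5 and ASAP1 lay between these limits. The 20 targets thus ran from −0.52 to 1.57 with a median of 0.20, beside a median of −0.01 over all genes tested. The median of the targets was 0.318 without siCTR replicate 1 and 0.155 without siCTR replicate 2, the highest and lowest with a library left out.

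**Figure D2:**
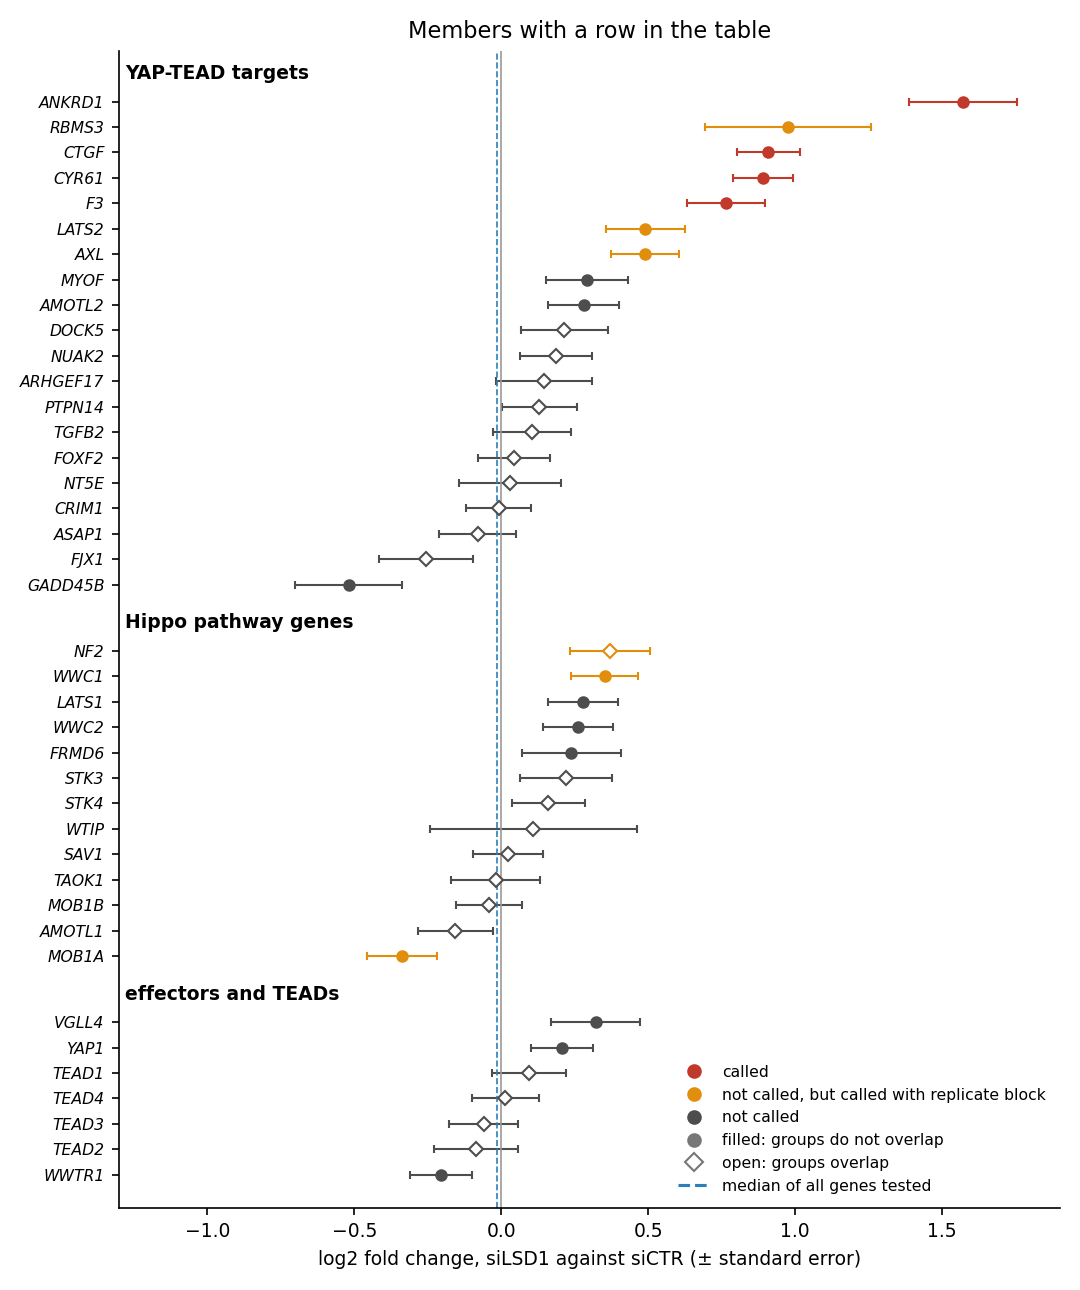
Log2 fold change of siLSD1 against siCTR with its standard error for 40 members, grouped by role, from edgeR's quasi-likelihood fit with 3 libraries per group. Red points were called, orange points were not called in this fit but were called with the replicate block, filled points did not overlap between groups in CPM, and the dashed line is the median of all genes tested (−0.01).

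Of the 13 Hippo pathway genes tested, 0 were called in either direction by edgeR, DESeq2 or limma-voom. Shares of all genes called higher and lower were 1.07% and 0.371% (edgeR), 1.77% and 0.954% (DESeq2), and 1.02% and 0.321% (limma-voom). At an unadjusted p under 0.05 in edgeR, 4 Hippo genes were higher and 1 was lower, beside 7.48% and 6.55% of all genes. The log2 fold changes of the 13 genes ran from −0.34 (MOB1A) to 0.37 (NF2) with a median of 0.16. This median was 0.258 without siLSD1 replicate 1, 0.0943 without siLSD1 replicate 3, and 0.0885 with GC content and gene length. In CPM, 4 did not overlap and were higher and 1 did not overlap and was lower, beside 11.4% and 9.97% of all genes tested.

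MOB1A, a cofactor of the LATS kinases, was at 179, 186 and 212 CPM in siCTR and at 137, 149 and 170 CPM in siLSD1 replicates 1, 2 and 3. All siLSD1 libraries were below all siCTR libraries, at a log2 fold change of −0.34 (standard error 0.12). Its paralog MOB1B averaged 41.5 ± 0.784 CPM across siCTR and 40.3 ± 1.65 CPM across siLSD1 (SD, n = 3 each), and the groups overlapped. Per length, MOB1A was the more abundant of the pair, at 39.3 ± 3.47 FPKM in siCTR against 5.86 ± 0.182 FPKM for MOB1B.

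WWC1 (KIBRA), an upstream activator of LATS kinases, was at 132, 108 and 133 CPM in siCTR and at 163, 156 and 157 CPM in siLSD1 replicates 1, 2 and 3. Its relative WWC2 was at 53.4, 45.0 and 54.1 CPM in siCTR and at 59.5, 59.6 and 63.7 CPM in siLSD1. Both had all siLSD1 libraries above all siCTR libraries, and both had their lowest value in siCTR replicate 2. The log2 fold changes were 0.35 (standard error 0.12) for WWC1 and 0.26 (standard error 0.12) for WWC2, and 0.26 and 0.18 without that library.

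LATS1 was at 47.5, 44.5 and 48.8 CPM in siCTR and at 51.3, 59.4 and 60.1 CPM in siLSD1 replicates 1, 2 and 3. The groups were apart by less than 3 CPM at their nearest, and the log2 fold change was 0.28 (standard error 0.12). FRMD6, a FERM domain protein upstream of the kinases, was at 9.55, 9.73 and 7.66 CPM in siCTR and at 9.99, 11.9 and 9.93 CPM in siLSD1. Its groups touched without overlapping, with a log2 fold change of 0.24 (standard error 0.17). Per length, LATS1 and LATS2 were near each other in siCTR, at 6.04 ± 0.337 and 7.18 ± 1.15 FPKM (SD, n = 3), with ranges that overlapped across libraries. Within each siCTR library LATS2 was the higher, at 8.36, 6.06 and 7.11 against 6.18, 5.65 and 6.28 FPKM in replicates 1, 2 and 3.

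With the replicate block, WWC1 and NF2 (merlin, a membrane-linked activator of the pathway) were called higher and MOB1A lower, so that 2 Hippo genes were called higher and 1 lower, beside 4.13% and 3.44% of all genes tested. With the terms for GC content and gene length, AMOTL1 was also called lower, for 2 higher and 2 lower beside 4.48% and 2.91% of all genes, and the same counts were found with the block and these terms together, beside 6.16% and 4.89%. NF2 overlapped by library, at 80.9, 67.2 and 70.9 CPM in siCTR and 108, 96.4 and 78.3 CPM in siLSD1 replicates 1, 2 and 3. The siLSD1 libraries were the higher ones except replicate 3, which lay within the siCTR range.

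The remaining Hippo genes, 8 with NF2 counted, overlapped between groups. They are the kinases STK3, STK4 and TAOK1, the scaffold SAV1, the cofactor MOB1B, the angiomotin AMOTL1, and WTIP, a LIM domain protein. Their log2 fold changes were −0.16 (AMOTL1) to 0.37 (NF2), with 5 above 0 and 3 below. WTIP had 14 to 30 reads per library, and its standard error of 0.35 was the largest of the 40 members.

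Of the 7 effector, TEAD and cofactor genes, 0 were called in either direction by edgeR, with 0 at an unadjusted p under 0.05. DESeq2, limma-voom, the replicate block, and the fits with terms for GC content and gene length called 0 as well. Of all genes tested, edgeR called 1.07% higher and 0.371% lower, with 7.48% and 6.55% unadjusted. The shares were 1.77% and 0.954% with DESeq2, 1.02% and 0.321% with limma-voom, and 4.13% and 3.44% with the block. They were 4.48% and 2.91% with GC content and gene length, and 6.16% and 4.89% with the block as well. With 7 genes, nothing is read from counts of 0. YAP1 was at 206, 179 and 200 CPM in siCTR and at 221, 232 and 221 CPM in siLSD1 replicates 1, 2 and 3. WWTR1 was at 134, 155 and 146 CPM in siCTR and at 122, 126 and 129 CPM in siLSD1. The paralogs were thus on opposite sides, YAP1 above the siCTR libraries and WWTR1 below them in each siLSD1 library, with log2 fold changes of 0.21 and −0.21 (standard error 0.11 for both).

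VGLL4, which competes with YAP1 for TEAD binding, was at 19.8, 14.0 and 15.8 CPM in siCTR and at 20.4, 20.5 and 21.0 CPM in siLSD1 replicates 1, 2 and 3. The siLSD1 libraries were higher, siCTR replicate 1 being next to them, and the log2 fold change was 0.32 (standard error 0.15). Of the 7 genes, 2 did not overlap and were higher (YAP1 and VGLL4) and 1 did not overlap and was lower (WWTR1), beside 11.4% and 9.97% of all genes tested.

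TEAD1 was at 746, 573 and 741 CPM in siCTR and at 692, 718 and 789 CPM in siLSD1 replicates 1, 2 and 3. The groups overlapped, siCTR replicate 2 being the lowest library, and the log2 fold change was 0.09 (standard error 0.13). TEAD2 was at 26.7, 21.9 and 25.1 CPM in siCTR and at 26.5, 22.4 and 20.6 CPM in siLSD1. TEAD3 was at 55.5, 50.0 and 55.3 CPM in siCTR and at 56.1, 48.8 and 49.4 CPM in siLSD1. TEAD4 was at 59.4, 55.2 and 58.8 CPM in siCTR and at 61.6, 60.3 and 53.3 CPM in siLSD1 replicates 1, 2 and 3. For TEAD2, TEAD3 and TEAD4 the groups overlapped widely, with log2 fold changes of −0.08, −0.06 and 0.01 (standard errors 0.14, 0.12 and 0.11).

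Per length, TEAD1 was the most abundant of the 7 in siCTR, at 74.1 ± 11.4 FPKM (SD, n = 3). YAP1 followed at 34.6 ± 2.93 FPKM and TEAD4 at 32.0 ± 1.62 FPKM, with ranges that overlapped across libraries. Within each siCTR library YAP1 was the higher, at 36.9, 31.3 and 35.5 against 33.2, 30.2 and 32.6 FPKM in replicates 1, 2 and 3. WWTR1 was at 26.9 ± 1.65, TEAD3 at 17.6 ± 1.22, TEAD2 at 9.14 ± 1.02 and VGLL4 at 3.27 ± 0.624 FPKM, each apart from the next in all 3 libraries. In siLSD1 the order was the same, with YAP1 at 39.9 ± 0.979 and TEAD4 at 32.3 ± 2.64 FPKM, which no longer overlapped.

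**Figure D3:**
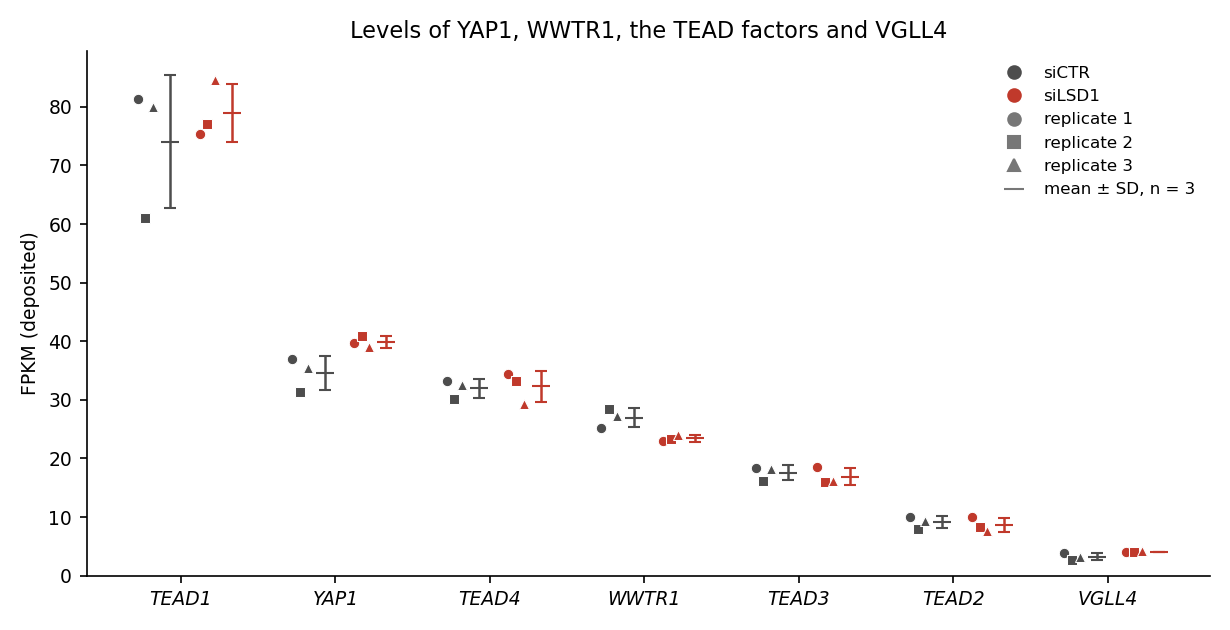
Deposited FPKM of TEAD1, YAP1, TEAD4, WWTR1, TEAD3, TEAD2 and VGLL4 (linear axis from 0) in 3 siCTR libraries (grey) and 3 siLSD1 libraries (red), with marker shapes for the replicate number and bars for the mean ± SD. TEAD1 was highest at 74.1 FPKM in siCTR and 79.0 FPKM in siLSD1, and the groups of the 4 TEAD genes overlapped.

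The libraries differed in their reads by GC content and by transcript length. From the 25% of tested genes lowest in GC content to the 25% highest, the median deviation of log2 CPM ran from 0.126 to −0.266 in siLSD1 replicate 3, from −0.144 to 0.162 in siLSD1 replicate 1 and from −0.0722 to 0.137 in siCTR replicate 1. Among the tested genes whose longest transcript had 5762 bases or more (the top 25%), the median deviation of log2 CPM from the mean of the 6 libraries was −0.16 in siCTR replicate 2 and −0.01 to 0.10 in the other 5. Among those with 2507 bases or less it was 0.20 in siCTR replicate 2 and −0.12 to 0.03 in the others. The 40 members were long, with a median longest transcript of 5367 bases beside 3924 for all genes tested, and 17 of them (42.5%) had their lowest level in siCTR replicate 2, beside 24.5% of all genes tested.

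Members with the lowest level in that library include MYOF, AMOTL2, LATS2, AXL, YAP1, VGLL4, TEAD1, LATS1, WWC1 and WWC2. Without siCTR replicate 2, the log2 fold change was 0.39 for LATS2, 0.45 for AXL, 0.15 for YAP1, 0.22 for VGLL4, −0.02 for TEAD1 and 0.24 for LATS1. For the 4 called targets it was 1.58 (ANKRD1), 0.97 (CTGF), 0.92 (CYR61) and 0.87 (F3), each at least as large as with all 6 libraries, and their transcripts were shorter, from 1790 bases for ANKRD1 to 3080 bases for CYR61. Without siCTR replicate 2, 65 genes were called higher and 23 lower over all genes, and the same 4 targets were called. The fit with terms for GC content and gene length is given above for each group of members, and the part of these library trends in the results was not tested further.

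**Figure D4:**
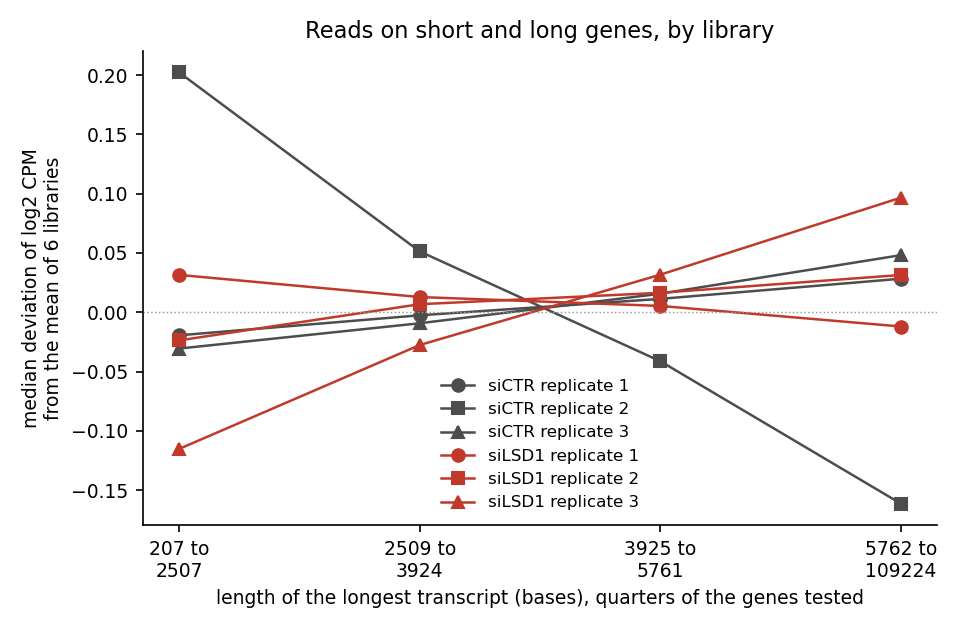
Median deviation of log2 CPM from the mean of 6 libraries (vertical axis) for the genes tested, in 4 equal bins by the length of the longest transcript in bases (horizontal axis), 1 line per library, grey for siCTR and red for siLSD1. The line of siCTR replicate 2 runs from 0.20 for the shortest transcripts to −0.16 for the longest.

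Genes of YAP signatures and of the Hippo pathway outside the members were counted in the same fit. These lists were also chosen with earlier results known, so the adjusted p-values, taken over all genes tested, describe single genes and lend nothing to the lists or the members. Of 53 YAP signature genes listed, 52 were in the table and 48 were tested, and 4 were called higher and 0 lower by edgeR, DESeq2 and limma-voom alike, with 10 higher and 1 lower at an unadjusted p under 0.05 in edgeR. Over all genes tested, edgeR called 1.07% higher and 0.371% lower, and 7.48% and 6.55% at an unadjusted p under 0.05. The shares called were 1.77% and 0.954% with DESeq2 and 1.02% and 0.321% with limma-voom. The median log2 fold change of the 48 signature genes was 0.14, with 32 genes above 0 and 16 below.

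IGFBP3, a secreted binding protein of insulin-like growth factors, was at 19.1, 23.3 and 20.1 CPM in siCTR and at 40.1, 39.0 and 46.6 CPM in siLSD1 replicates 1, 2 and 3. The groups were far apart, at a log2 fold change of 1.01 (standard error 0.13) and an edgeR quasi-likelihood p of 0.00356 after Benjamini-Hochberg correction, and the call held in each of the 6 fits that left out 1 library. TGM2, a protein-crosslinking transglutaminase, was at 9.09, 8.18 and 8.70 CPM in siCTR and at 18.8, 14.4 and 15.1 CPM in siLSD1, with a log2 fold change of 0.89 (standard error 0.16, edgeR adjusted p = 0.0160). It was higher in 3 of 3 siLSD1 libraries.

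THBS1, the matrix protein thrombospondin, was at 136, 123 and 142 CPM in siCTR and at 189, 200 and 184 CPM in siLSD1 replicates 1, 2 and 3. All 3 siLSD1 libraries were above all 3 siCTR libraries, with a log2 fold change of 0.51 (standard error 0.11, edgeR adjusted p = 0.0341). BICC1, an RNA-binding protein, was next by p, with a log2 fold change of 0.37 (standard error 0.11, edgeR adjusted p = 0.141), and did not pass.

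The calls of TGM2 and THBS1 were not stable when 1 library was left out. With 1 library left out, TGM2 was called in 3 of 6 fits and THBS1 in 0, and over all alternatives their adjusted p ran up to 0.0739 and 0.239. TGM2 was lost without siCTR replicate 2, siCTR replicate 3 or siLSD1 replicate 1. The log2 fold changes stayed at 0.77 to 0.98 for TGM2 and 0.46 to 0.56 for THBS1. With the replicate block, 8 genes of this list were called higher and 0 lower, beside 4.13% and 3.44% of all genes, with BICC1, DUSP1, HMMR and TNS1 in addition.

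Of 65 other Hippo pathway genes listed, 62 were in the table and 51 were tested, and 1 was called higher and 0 lower by edgeR, DESeq2 and limma-voom alike, with 5 higher and 7 lower at an unadjusted p under 0.05 in edgeR. Over all genes tested, edgeR called 1.07% higher and 0.371% lower, with 7.48% and 6.55% unadjusted. The shares called were 1.77% and 0.954% with DESeq2 and 1.02% and 0.321% with limma-voom. The median log2 fold change of the 51 genes was 0.01, with 26 above 0 and 25 below, close to that of all genes.

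PARD3, a cell polarity scaffold, was at 58.0, 54.7 and 62.6 CPM in siCTR and at 83.5, 86.3 and 81.4 CPM in siLSD1 replicates 1, 2 and 3. The groups were apart, with a log2 fold change of 0.52 (standard error 0.11, edgeR adjusted p = 0.0376), and the call was lost in each of the 6 fits that left out 1 library, where the log2 fold change was 0.48 to 0.57. PARD6B, a partner of PARD3 in the polarity complex, was at 14.6, 19.8 and 19.6 CPM in siCTR and at 12.00, 12.52 and 11.42 CPM in siLSD1. It was lower in all 3 siLSD1 libraries, with a log2 fold change of −0.59 (standard error 0.16, edgeR adjusted p = 0.103).

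The next genes by p were LIMD1, a LIM domain protein that binds LATS kinases, at −0.40 (standard error 0.11, edgeR adjusted p = 0.126), and the Ras-association proteins RASSF5 at −0.52 (standard error 0.15, adjusted p = 0.127) and RASSF3 at 0.37 (standard error 0.11, adjusted p = 0.141). None of these 3 passed without further terms in the fit. With the replicate block, RASSF3 was also called higher and PARD6B, LIMD1 and RASSF5 lower, giving 2 higher and 3 lower beside 4.13% and 3.44% of all genes. Without siCTR replicate 1, PARD6B was called lower and PARD3 was not called.

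**Figure D5:**
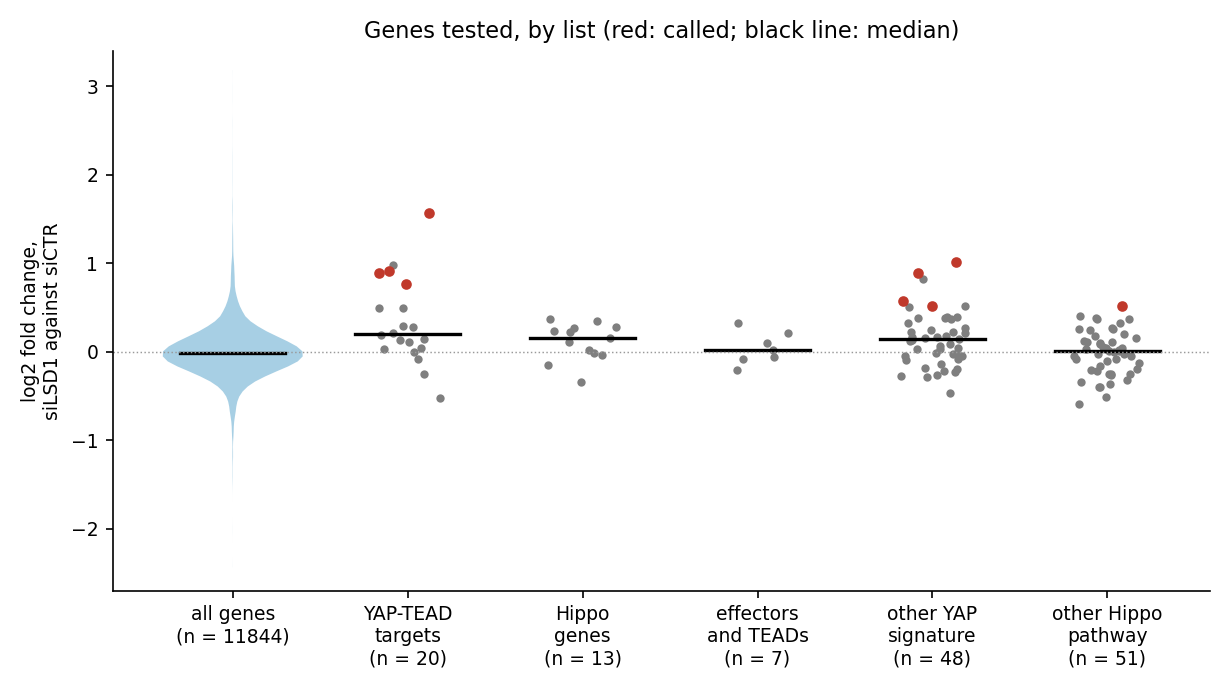
Log2 fold change of siLSD1 against siCTR for all genes tested (violin) and for each tested gene of the 5 lists (points), with black lines for medians and red points for genes called higher. The medians are 0.20 for the YAP-TEAD targets, 0.16 for the Hippo genes, 0.01 for the effectors and TEADs, 0.14 for the other YAP signature genes and 0.01 for the other Hippo pathway genes, beside −0.01 for all genes.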

How the data were processed

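The authors' deposited gene counts and FPKM values were used. The submitters' processing notes name STAR for alignment, and its version, genome build, annotation and the counting tool are not given in the sources used here. The authors' comparison columns (log2 fold change, p and adjusted p) and 12 per-sample columns of normalized signal were not used. A second set of counts in the authors' pair tables served as an alternative.

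Counts were normalized by TMM, and filterByExpr with a minimum count of 10 left 11844 of 15585 genes. Tests used the edgeR quasi-likelihood fit with Benjamini-Hochberg adjustment at 0.05, and the biological coefficient of variation was 12.6%. CPM were TMM-scaled, with a prior count of 2 where logged. The procedure was tested on simulated data. Versions were R 4.3.3, edgeR 4.0.16, limma 3.58.1, DESeq2 1.42.0, Python 3.11.15, numpy 2.4.6, pandas 2.3.3 and matplotlib 3.10.9.

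Alternatives were DESeq2, limma-voom, normalization by library size alone, a stricter filter or none, a replicate block, the second counts, correction for GC content and gene length (lowess span 0.3), and leaving out each library. GENCODE release 44 (GRCh38) supplied GC content and length, available for 99.3% of tested genes. The block joined with the GC and length correction was added after seeing the data.

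Replicate numbers were checked for pairing over 9065 genes averaging 10 CPM or more. Deviations from group means correlated at 0.426, 0.127 and 0.478 for equal numbers and at −0.446 to 0.003 for other pairs. Libraries with equal numbers thus deviated together, only weakly for replicate 2. Deviations within a group sum to 0, so these values are not independent. Whether they reflect paired samples or the library trends with GC content was not tested. Library pairs differed by a chi-square per degree of freedom of 6.50 to 39.4, so all 6 libraries were separate.

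Members and gene lists were chosen with earlier results of these data known. Members that did not overlap between groups or were called are named with the value in every library, and the others are summarized by range. AMOT was not analysed here. The planned protein comparison was not run.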

Additional observations from a re-analysis of the deposited data

How the results depend on the processing

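Genes called higher moved from 127 to 210 with DESeq2, 489 with the replicate block (paired fit), 527 with GC content and gene length, 725 with both, and 45 to 99 with a library left out. Genes called lower moved from 44 to 113 with DESeq2, 102 with no filter, 408 with the block, 342 with GC content and length, 575 with both, and 7 to 37 with a library left out. Fits without a library have fewer samples.

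YAP-TEAD targets called higher moved from 4 to 7 with the block, 7 with GC content and length, and 8 with both, and were 3 to 5 with a library left out. Hippo genes called higher moved from 0 to 2, 2 and 2, and called lower from 0 to 1, 2 and 2, in the same order. The median log2 fold change of the Hippo genes moved from 0.16 to 0.26 without siLSD1 replicate 1, and over the 6 omissions of a library it ran from 0.0943 to 0.258. It was 0.0885 with GC content and length and 0.0853 with the block as well. The median of the targets, 0.20, ran from 0.155 to 0.318 over the same omissions.

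Other YAP signature genes called higher moved from 4 to 8, 8 and 11, and to 1 to 3 with a library left out, and called lower from 0 to 2 with the block and GC content and length together. Other Hippo pathway genes called higher moved from 1 to 2, 2 and 3, and to 0 with any library left out. Those called lower moved from 0 to 3, 4 and 8, and to 1 without siCTR replicate 1.

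Among the markers the block also called CDH1 and CDH5 higher, and it changed the call of no other marker. The fit with block, GC content and length together was added after seeing the data. Of 600 member log2 fold changes under the alternatives, 596 differed from the value in all 6 libraries by less than 1 SD between replicates of that gene and 4 moved by more (FOXF2 to 0.21 and TEAD4 to 0.13 or 0.14 with GC content and length, without and with the block). Shifts within 1 SD can still be large against the value, as without siCTR replicate 2 for MYOF (0.29 to 0.14), PTPN14 (0.13 to 0.00) and ARHGEF17 (0.14 to −0.03). The cause was not tested. Depth was 12513511 to 13561344 reads per library, and standard errors were larger in genes with few reads (0.35 for WTIP, with 14 to 30 reads per library). Which sizes of change could be found at low counts was not tested.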
